A study of Mus musculus with 6 samples.

Results

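Genes that encode subunits of ion channels were examined in a bulk RNA sequencing data set of mouse Leydig cells, the androgen-producing cells of the testis interstitium. Members were chosen by symbol alone, as the listed genes of the potassium (Kcn), calcium (Cacn), sodium (Scn), pacemaker (Hcn), transient receptor potential (Trpc, Trpm, Trpv), chloride (Clcn, Clic, Ano), ligand-gated (P2rx, Gria, Grin, Grik, Gabr, Chrn), calcium release (Itpr, Ryr), store-operated (Orai, Stim) and mechanosensitive (Piezo) families, with 1 Kcn symbol left out. The choice gave 130 of the 10580 genes in the deposited table. Fetal Leydig cells (FLCs) were taken at E18.5 and adult Leydig cells (ALCs) at P100 (postnatal day 100), with 3 libraries per group. All animals were males carrying the Nr5a1 Tg genotype, a transgene in which the Nr5a1 sequences drive green fluorescent protein. The embryos came from CD-1 females mated with heterozygous transgenic males, and the adults were heterozygous for the transgene. Living single fluorescent cells were sorted from dissociated testes, and fetal cells from several sorts were pooled.

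The deposited table gives 1 level per gene, the authors' mean over all 6 libraries of both stages of the counts divided by DESeq2 size factors, called here the mean normalised count. It has no value per library and no value per stage outside the columns of the authors' own comparison, which were not used. Because both stages are pooled, an order or ratio of genes given here need not hold in either stage alone. No difference between FLCs and ALCs, no spread over replicates and no test is therefore given, and the depth of each library is unknown. All rows of the table have an adjusted p of the authors below 0.05, so that a gene outside the table has no level here, which says nothing of its expression. Of 255 annotated protein-coding genes whose symbols fit the choice, 130 (51.0%) were listed, beside 47.6% of all annotated protein-coding genes. Because listing is itself the outcome of the authors' comparison, nothing is read from these shares.

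Ion channels are membrane proteins that let selected ions pass when voltage, a ligand, stretch or calcium stores open them. Potassium channels set the resting potential of a cell, and voltage-gated calcium channels admit calcium when the membrane depolarises. In Leydig cells, luteinising hormone acts through cyclic AMP and also through cytosolic calcium, which comes from entry across the plasma membrane and from release by the endoplasmic reticulum, and both feed into steroid synthesis. Many channels are assembled from a pore-forming subunit and auxiliary subunits that change its trafficking or gating, so that the level of 1 gene does not give the number of working channels.

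The sorted cells carried the RNA of Leydig cells. The 5 Leydig markers had means from 87502 for Star to 283675 for Cyp17a1. Nr5a1 is also active in Sertoli cells, and the Sertoli markers Amh and Dhh had means of 137 and 89.0. Markers of other cells were listed at lower means: Tcf21 of interstitial progenitors at 216, Ddx4 of germ cells at 184, Esam of endothelium at 102, and the neuronal marker Rbfox3 at 32.0. Of the immune markers, Csf1r had a mean of 982, Emr1 of 177, Ptprc of 139 and Cxcl2 of 11.6. The 4 spermatid markers Prm1, Prm2, Tnp1 and Tnp2 had means between 1006 and 3191. Per kb of exon they were at 2301 to 3570. None of the 3 peritubular myoid markers was listed, so they have no level here, which says nothing of their expression. In bulk RNA, fewer cells of a type and less RNA per cell cannot be told apart, and the part of these other cells in the channel levels was not tested.

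As a group, the ion channel genes stood low among the listed genes, with a few high exceptions. Their mean normalised counts ran from 3.82 for Kcnk7 to 23943 for Kcnk3, with a median of 93.7 and quartiles of 24.7 and 586. The median over all listed genes was 679. Channel transcripts were longer than those of the listed genes, with a median exonic length of 5872.5 against 4261 bases, and longer transcripts give more reads, so levels of different genes were compared per kb of exon. On that scale the median was 18.4 for the channel genes and 147 for all listed genes. Of the 130 genes, 31 (23.8%) lay at or above the listed median as deposited and 27 (20.8%) did so per kb. There were 14 channel genes among the highest 25% of listed genes as deposited and 9 per kb, of which 8 were in both and Orai3 per kb alone. At the low end, 14 channel genes (10.8%) had a mean below 10, beside 4.61% of all listed genes.

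Much of the summed channel signal came from a small number of genes. Per kb, Kcnk3 alone made up 31.0% of the summed level over the 130 genes. The 4 highest genes held at least 50% of it, and the 30 highest at least 90%. The 10 highest genes together held 68.3%. The channel genes as a whole held 0.467% of the summed mean normalised count of the listed genes. By family, potassium channel genes held 53.8% of the summed channel level per kb, chloride channel genes 22.5%, and store-operated and mechanosensitive genes 5.96%. The lowest shares were those of the TRP genes, at 1.26%, and of the sodium channel genes, at 0.553%. These shares depend on the scale. In the means as deposited, Kcnk3 held 23.0%, and the 7 highest genes held at least 50%. Potassium channel genes then held 43.0% and chloride channel genes 22.2%. Calcium release genes held 13.8% as deposited against 4.49% per kb, and store-operated and mechanosensitive genes 4.91% as deposited.

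**Figure D1:**
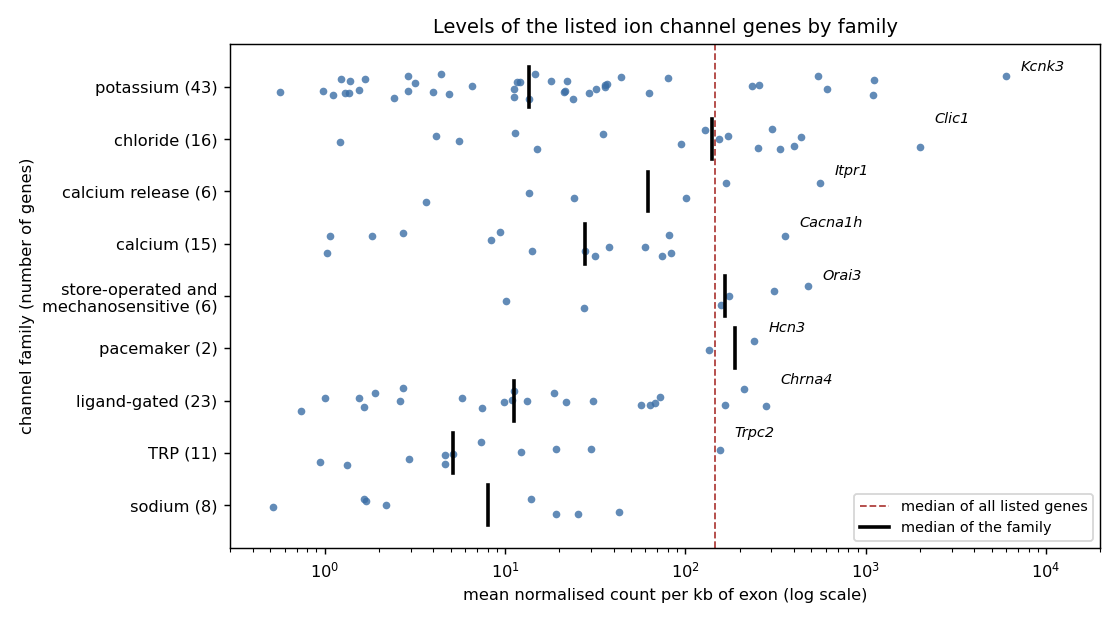
Level of each of the 130 listed ion channel genes, as mean normalised count per kb of exon on a log axis, by family; each point is 1 gene (its height within a row is arbitrary), black bars are family medians and the dashed line is the median of all listed genes. In 8 of the rows the highest gene is named; most points lie left of the dashed line at 147, whereas Kcnk3 lies at 6022.

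**Figure D2:**
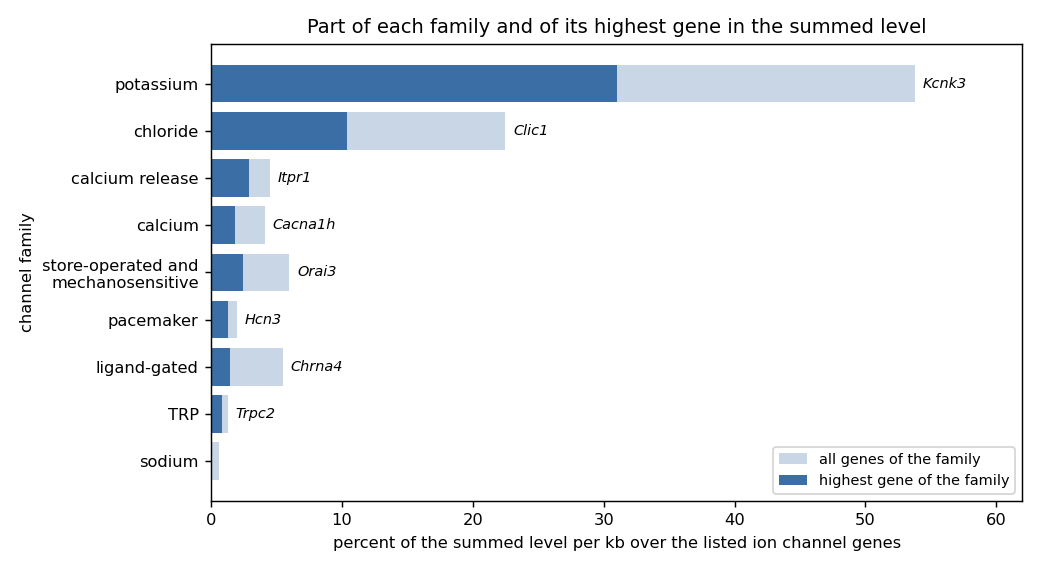
Percent of the summed level per kb over the 130 listed ion channel genes held by each family (light bars) and, in 8 families, by its highest gene (dark bars), which is named beside the bar. Potassium channel genes held 53.8% and Kcnk3 alone 31.0%.

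Potassium channel genes were the largest family, with 43 members, and spanned the whole range. The tandem pore genes, which encode background channels that hold the membrane near the potassium potential, included the highest channel gene of all. Kcnk3 (TASK-1, an acid-sensitive background channel) had a mean of 23943, or 6022 per kb, rank 83 of the 10580 genes as deposited. Kcnk1 (TWIK-1) followed with 2467, or 1104 per kb, and Kcnk5 (TASK-2) with 873, or 256 per kb. The level of Kcnk3 per kb was thus 5.45 times that of Kcnk1. The other tandem pore genes were low, Kcnk2 (TREK-1, opened by stretch and lipids) at 72.4, Kcnk13 at 66.0 and Kcnk7 at 3.82, the lowest deposited mean of the 130 genes. Kcnk3 exceeded its paralog Kcnk2 by 411 times per kb. Kcnk3 lies at chr5:30588170-30625271 on GRCm38.

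Among the 14 voltage-gated potassium channel genes, members of the ether-a-go-go group stood at both ends. Kcnh2 (hERG in humans, a repolarising channel of heart muscle) had a mean of 5298, or 1093 per kb. Kcnh1 had 4442, or 606 per kb. The related Kcnh3 and Kcnh8 had means of only 8.96 and 4.47, and Kcnh2 exceeded Kcnh3 by 702 times per kb. Next came the A-type genes Kcnd1, Kcnd3 and Kcnd2, which encode rapidly inactivating channels, with means of 422, 345 and 184. The delayed rectifiers Kcnc2 and Kcnb2 had means of 34.7 and 18.7. Kcnq5 and Kcnq3, subunits of the neuronal M current, were at 24.5 and 19.0, and Kcna6 was at 9.90.

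The silent modifier genes encode subunits that form no channel by themselves and alter the Kcnb channels they join. Kcng4 stood out in this class at 2059, or 541 per kb. Its level per kb was 439 times that of Kcnb2, which encodes a partner subunit. Kcns2 and Kcng3 had means of 101 and 40.8, and Kcnf1 and Kcng1 of 6.52 and 6.25.

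Of the ion-activated potassium channel genes, Kcnt1, which encodes a sodium-activated channel, was highest at 2221, or 234 per kb. Kcnma1, the large-conductance calcium-activated channel, had a mean of 625, and its auxiliary subunit gene Kcnmb4 had 97.4. Per kb this pair was close, at 36.8 and 29.3. The small-conductance calcium-activated genes Kcnn2, Kcnn1 and Kcnn3 had means of 329, 109.7 and 11.7. Kcnu1, which encodes a channel known from sperm, had a mean of 119, in libraries that also held the spermatid markers given above. The sperm calcium channel genes Catsper1 to Catsper4 lay outside the chosen symbols and had means of 50.8, 235, 28.5 and 30.7. The part of germ cells in the Kcnu1 level was not tested.

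The 6 inward rectifier genes in the choice were low. Kcnj8, a subunit of ATP-sensitive channels, was highest at 54.9, or 21.5 per kb. Kcnj16, Kcnj9, Kcnj10, Kcnj12 and Kcnj6 had means of 25.9, 17.0, 15.7, 8.003 and 4.30. All 6 had means below 100. Auxiliary potassium channel genes were led by Kcnip4 at 228, which encodes a calcium-binding partner of the Kcnd channels and has the longest span of all members at 1135406 bases. Beside Kcnmb4, given above, the other auxiliary genes were Kcnab2, Kcnip3, Kcne3 and Kcne1l, with means of 62.4, 48.4, 39.4 and 17.2. Neither class had a member at or above the listed median.

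The pore of a potassium channel is lined by a short signature stretch, in which threonine, any residue, glycine, tyrosine or phenylalanine, and glycine follow each other. Its codons were searched in frame in the longest annotated coding sequence of each gene, and the matches of the 5 genes with the highest levels per kb among those that held it, and of Kcnd1 as a voltage-gated gene, are shown to place the signature in the transcripts behind these levels. The sequences are from GENCODE on GRCm38, 5′ to 3′ on the coding strand, with the codons of the signature in capitals and 9 bases to each side.
Kcnk3, first match: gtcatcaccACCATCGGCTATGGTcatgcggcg
Kcnk3, second match: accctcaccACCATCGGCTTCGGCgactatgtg
Kcnk1: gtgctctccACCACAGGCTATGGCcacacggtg
Kcng4: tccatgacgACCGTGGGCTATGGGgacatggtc
Kcnk5, first match: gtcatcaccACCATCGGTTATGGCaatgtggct
Kcnk5, second match: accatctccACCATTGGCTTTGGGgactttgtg
Kcnt1: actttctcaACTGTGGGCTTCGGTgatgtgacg
Kcnd1: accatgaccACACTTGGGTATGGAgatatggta
The second match of Kcnk3 lies at chr5:30622193-30622225 on the plus strand in exon 2, the second match of Kcnk5 at chr14:20144639-20144671 on the minus strand in exon 4, that of Kcng4 at chr8:119625901-119625933 on the minus strand in exon 3, and that of Kcnt1 at chr2:25894358-25894390 on the plus strand in exon 11. The first match of Kcnk3 and those of Kcnk1 and Kcnd1 run from exon 1 into exon 2, and the first match of Kcnk5 from exon 2 into exon 3, since an intron splits the signature codons. Their outer ends are at chr5:30588584-30621907 for Kcnk3, chr8:125995799-126025028 for Kcnk1 and chrX:7824947-7831187 for Kcnd1, all on the plus strand, and at chr14:20145106-20146516 on the minus strand for Kcnk5.

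The full signature was found in 30 of the 43 potassium channel genes. By class it was present in 6 of 6 tandem pore, 6 of 6 inward rectifier, 5 of 5 silent modifier, 10 of 14 voltage-gated and 3 of 6 ion-activated genes. None of the 6 auxiliary genes had it. Over all 10440 listed protein-coding genes it occurred in 1.18%, so that a match is rare but not confined to potassium channels. Of the 87 other ion channel genes 4 had it, all of them ionotropic glutamate receptor genes (Grik5, Grin2a, Grin2c and Grin2d). An intron split the signature codons in 9 of the 30 genes, which were all 6 tandem pore genes and the 3 genes Kcnd1, Kcnd2 and Kcnd3. The 4 tandem pore genes Kcnk2, Kcnk3, Kcnk5 and Kcnk13 had a second match, and none of these was split.

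The 7 pore-forming genes without the full signature were the Kcnh and Kcnn genes, and the shorter pattern of glycine, tyrosine or phenylalanine, and glycine was found in all of them. This shorter pattern occurred in 15.2% of the listed protein-coding genes. At the place of the threonine codon the Kcnh genes had the serine codon AGT or AGC, and Kcnn1 and Kcnn3 the serine codon TCC. The matches of the 2 high Kcnh genes are printed below with the same 15 bases in capitals.
Kcnh2: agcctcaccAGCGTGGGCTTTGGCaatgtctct
Kcnh1: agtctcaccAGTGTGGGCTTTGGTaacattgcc
The match of Kcnh2 lies at chr5:24325546-24325578 on the minus strand and that of Kcnh1 at chr1:192337745-192337777 on the plus strand, each in exon 7.

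**Figure D3:**
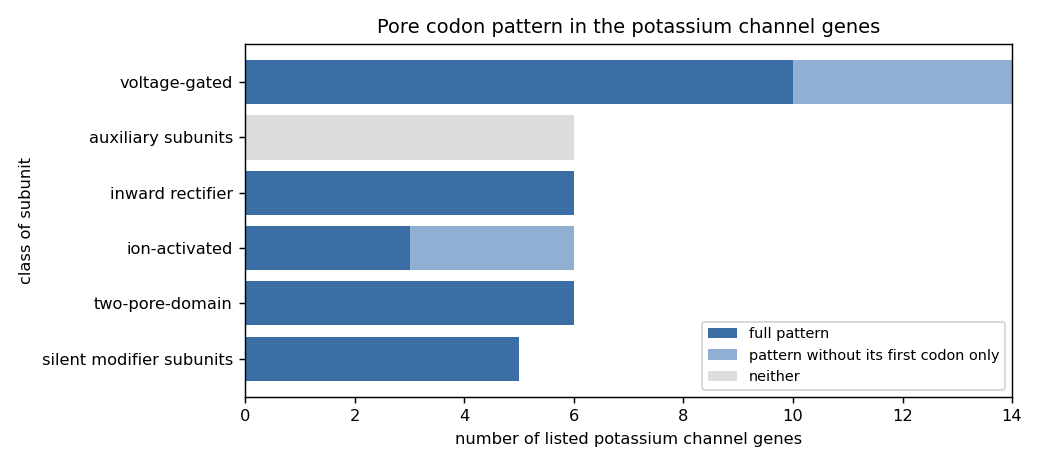
Number of listed potassium channel genes of each class whose longest coding sequence held the codons of the full pore signature, the shorter pattern alone, or neither. The full signature was found in 30 of 43 genes and in none of the 6 auxiliary genes.

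Chloride channel genes, 16 in number, had a median per kb of 141, near that of all listed genes, and 8 of them lay at or above the listed median on that scale. Clic1, a small protein found both in the cytosol and in membranes, had a mean of 3612 and was the second highest channel gene per kb at 2008. Clic4 had a mean of 2642, or 402 per kb, whereas Clic5, Clic3 and Clic6 had means of 132, 96.0 and 44.6. Clic3 has the shortest exons of all members, 1012 bases in total, and its level per kb was 94.9.

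Anoctamins are calcium-activated chloride channels or lipid scramblases. Ano6, a scramblase that exposes phosphatidylserine, was the highest of them, with a mean of 4125, or 336 per kb. Ano10 and Ano8 had means of 1500.2 and 1055, and Ano1, the calcium-activated chloride channel of epithelia and smooth muscle, had 801. Ano3, Ano4 and Ano2 followed at 252, 40.2 and 22.4. Among the CLC genes, the chloride and proton exchangers of endosomes and lysosomes were high, with Clcn5 at 3472 (303 per kb), Clcn3 at 2929.9 (172 per kb) and Clcn7 at 2311 (437 per kb). Clcn1, the plasma membrane channel of skeletal muscle, had a mean of 6.58.

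All 6 annotated calcium release channel genes were listed, beside 51.0% of the annotated channel genes and 47.6% of all annotated protein-coding genes. Nothing is read from this, since listing depends on the authors' comparison. Inositol trisphosphate receptors open calcium stores when a hormone receptor activates phospholipase C, and all 3 of their genes had means above 1000. Itpr1 had a mean of 10273, or 561 per kb, rank 6 of the 130 genes on that scale, and Itpr3 and Itpr2 had 1520.0 and 1489. Per kb, Itpr1 exceeded Itpr3 by 3.33 times and Itpr2 by 5.58 times. Ryanodine receptors, the release channels of muscle and nerve, were lower, at 692 for Ryr2, 296 for Ryr1 and 69.5 for Ryr3. Their transcripts are among the longest of all, and per kb they were at 24.04, 13.6 and 3.66, so that Itpr1 exceeded Ryr2 by 23.3 times.

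Voltage-gated calcium channel genes numbered 15, of which 8 encode the pore. Cacna1h, a T-type channel that opens at small depolarisations, had a mean of 3472, or 356 per kb, and was the only gene of the family at or above the listed median per kb. The other T-type genes were low, with means of 27.7 for Cacna1g and 10.2 for Cacna1i. Per kb, Cacna1h exceeded these paralogs by 130.1 and 344 times. The L-type gene Cacna1d, known from pacemaking and endocrine cells, had a mean of 932, or 73.8 per kb, so that the level of Cacna1h was 4.82 times as high. Its relatives Cacna1c and Cacna1s had 198 and 92.6, and Cacna1e and Cacna1b had 46.4 and 10.6. The genes of auxiliary subunits were led by Cacnb2 at 1074 and Cacna2d1 at 1033, with levels of 81.2 and 83.2 per kb. Cacnb4, Cacnb1, Cacnb3, Cacng7 and Cacng4 had means of 284, 271, 111, 91.8 and 29.9.

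**Figure D4:**
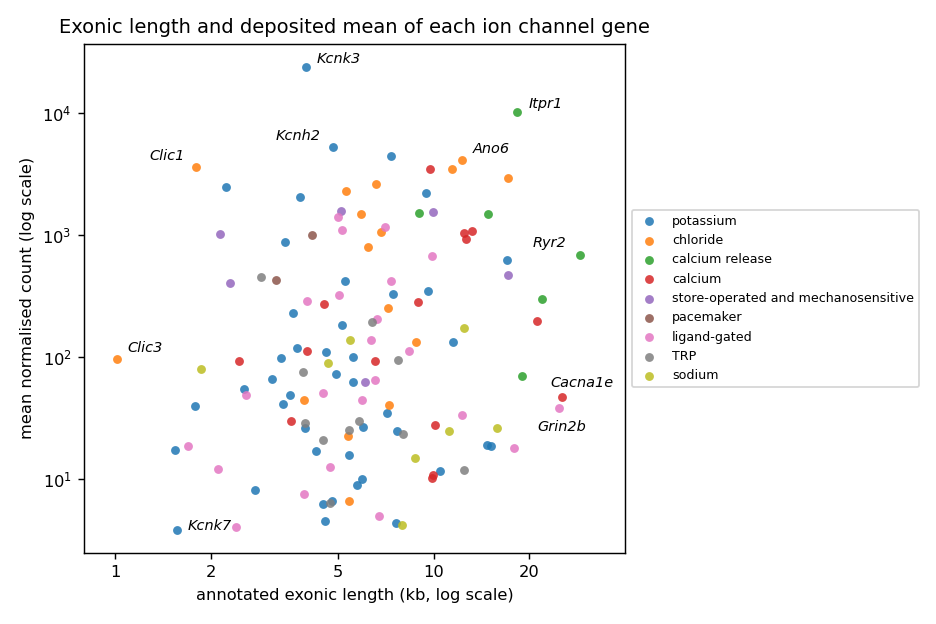
Annotated exonic length in kb (horizontal) and deposited mean normalised count (vertical) of each of the 130 ion channel genes, both on log axes, with points coloured by family. Itpr1, with a mean of 10273 over 18319 exonic bases, and Clic1, with 3612 over 1799 bases, show how the order of genes depends on length.

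Store-operated entry refills calcium stores through Orai pores opened by Stim sensors of the endoplasmic reticulum. The sensor gene Stim2 had a mean of 1588, or 309 per kb, whereas Stim1 was not listed. Orai3 had a mean of 1021, or 477 per kb, Orai1 of 402, or 175 per kb, and Orai2 of 61.7, or 10.2 per kb. The order Orai3, Orai1, Orai2 was the same on both scales, with Orai3 2.72 times above Orai1 per kb. Piezo1 and Piezo2 form stretch-activated channels of vessels and of sensory nerves, and had means of 1561 and 469. Per kb the level of Piezo1 was 5.75 times that of Piezo2.

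The pacemaker genes, whose cation channels open on hyperpolarisation and bind cyclic AMP, were Hcn3 at 1003 and Hcn2 at 429. Their levels per kb were 242 and 134, and Hcn4 was not listed. Sodium channel genes, by contrast, were all below the listed median on both scales. Scn3a had the largest deposited mean at 173, and the auxiliary genes Scn3b and Scn2b had 138 and 89.1. The pore-forming genes Scn8a, Scn1a and Scn10a had means of 26.2, 24.5 and 4.15. Scn10a, known from sensory neurons, had the lowest level per kb of all 130 genes at 0.520.

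The 23 ligand-gated genes had a median of 11.2 per kb, and 3 of them lay at or above the listed median on that scale. Chrna4, a nicotinic acetylcholine receptor subunit, was highest with a mean of 1400.4, or 279 per kb. Its usual partner Chrnb2 had a mean of 111 and was 21.1 times lower per kb, and Chrna7 and Chrne had means of 50.3 and 18.5. Of the P2X receptors, which open on extracellular ATP, P2rx4 was highest at 1159.8, or 165 per kb, and exceeded its chromosomal neighbour P2rx7 by 22.2 times per kb. P2rx6, P2rx2, P2rx7 and P2rx5 had means of 290.2, 48.3, 44.4 and 3.98. Macrophages also express P2rx4 and P2rx7, and the macrophage marker Csf1r had a mean of 982, but its part in their levels was not tested.

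Glutamate receptor genes were led by the kainate subunit Grik5 at 1091, or 211 per kb. Grik5 needs another kainate subunit to form a channel, and the only other one listed, Grik1, had a mean of 4.95 and was 287 times lower per kb. Gria3, an AMPA receptor subunit, had a mean of 670.4. The NMDA receptor genes Grin2c, Grin2d, Grin2b, Grin3a and Grin2a had means of 320.4, 205, 38.4, 33.4 and 18.01. Grin1, the subunit shared by NMDA receptors, was not listed. For GABA-A receptors, the chloride channels of inhibitory synapses, Gabrb2 had a mean of 139, or 21.8 per kb. The subunits Gabre, Gabrr2 and Gabra3 had means of 12.4, 12.1 and 7.44, and no gamma subunit gene was listed.

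TRP genes encode cation channels that respond to lipids, temperature or calcium, and had the lowest family median per kb, at 5.14. Trpc2, a channel of the vomeronasal organ, was highest with a mean of 449, or 156 per kb. Its level is uncertain, because 97.5% of its exonic bases are shared on the same strand with the annotated gene Xntrpc, and the counting could assign such reads to either. Trpm5, a calcium-activated channel of taste cells, had a mean of 193, Trpm6 had 94.8 and Trpc7 had 74.8. Of the others, Trpv3, Trpv6, Trpc1 and Trpv2 lay between 20.8 and 29.96, Trpm2 was at 11.7, and Trpm8, the cold receptor, was at 6.31. Without Trpc2 no TRP gene reached the listed median per kb.

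The channel genes also differed from the listed genes in structure. Their median genomic span was 63881 bases against 24308 over all listed genes, and 52 of 130 (40%) spanned over 100 kb against 14.6% of the listed genes. The median number of exons was 12 against 9. Kcne1l and Kcnf1 consist of 1 exon, whereas the ryanodine receptor genes have between 104 and 109 exons. Exonic length ran from 1012 bases in Clic3 to 28790 in Ryr2. Apart from Trpc2, the largest overlap with another gene on the same strand was 2.24% of exonic length, in Kcnab2. On the opposite strand, 10 members had over 10% of their exonic bases covered by another gene. Single antisense or non-coding genes covered 39.6% of Kcna6, 20.8% of Kcnmb4, 19.98% of Cacna1s, 16.0% of Cacnb4 and 12.2% of Kcnk2. Another antisense gene covered 10.7% of Kcnmb4. Among protein-coding genes, Ctu2 covered 24.6% of the exonic bases of Piezo1, Pklr 17.1% of Hcn3, Adar 16.3% of Chrnb2 and Slc7a4 13.9% of P2rx6. The library kit keeps strand, but whether the counting used it is not stated, so these levels are less certain.

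Channel genes lay on 20 chromosomes, with 13 each on chromosomes 2 and 7 and 12 on chromosome 11. There were 11 pairs of neighbouring members less than 500 kb apart, several of them paralogs. Kcnj9 and Kcnj10 are 11891 bases apart on chromosome 1 and had nearly equal means of 17.0 and 15.7. P2rx7 and P2rx4, 16111 bases apart on chromosome 5, had means of 44.4 and 1159.8. Clcn7 and Cacna1h, 212180 bases apart on chromosome 17, were both high at 2311 and 3472.

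Pumps and exchangers build the ion gradients that channels use. Of 19 such genes in a list, 13 were listed, with a median of 1457. The sodium pump beta subunits Atp1b2 and Atp1b3 had levels of 2423 and 2505 per kb, and the calcium pump of the endoplasmic reticulum, Atp2a2, had 1472. These levels were above those of all channel genes except Kcnk3 and, for Atp2a2, Clic1. The plasma membrane calcium pumps Atp2b3, Atp2b4 and Atp2b1 had levels of 390.4, 145 and 127 per kb. The sodium and calcium exchangers Slc8a1 and Slc8a3 were low, at 10.6 and 11.8 per kb.

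A second list held 56 channels and channel partners that the chosen symbols did not take, of which 36 were listed with a median of 271. The mitochondrial outer membrane pores Vdac1 and Vdac2 had levels of 3760.4 and 814 per kb, and Ttyh3, a protein described as an anion channel, had 2423. Subunits of the mitochondrial calcium uniporter, Smdt1 and Mcu, had 1327 and 193 per kb. The volume-regulated anion channel genes Lrrc8b and Lrrc8d had 226 and 151 per kb. Best3 and Cnga1, with levels of 1.14 and 0.671, were at the low end of this list.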

How the data were processed

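FLCs (E18.5) and ALCs (P100) were compared by the authors in 3 libraries per group, prepared with a stranded total RNA kit per the labels, whereas the paper's results name poly(A)+ RNA. The authors demultiplexed reads with CASAVA 1.8.2, mapped them with GemTools to GRCm38, counted them per Gencode gene in house, dropped those under 10 reads and ran DESeq2. The signal used here, as deposited by the authors, is a gene's average size-factor-scaled count across the 6 libraries, so it pools both groups. The other deposited columns hold the authors' own log2 fold changes, their errors, statistics and p-values, and were not used, apart from a check that all 10580 adjusted p-values lie below 0.05. The planned test on counts was therefore not run, a sheet of library names was not used, and depth per library is unknown.

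Genes were matched to GENCODE M21 on GRCm38 by symbol (10206) or older symbol (301), 73 had no match, and all 130 channel genes matched by symbol. The authors used another Gencode release, so lengths may differ from theirs. Levels per kb are the mean divided by the union of exons. Percentiles and medians are over listed genes only. Python 3.11.15, pandas 2.3.3 and numpy 2.4.6 were used, and the functions were tested on simulated data. The pore signature was searched in coding sequences, because no protein table was used. Promoters were left out, since 95 of the 130 genes (73.1%) had one, fewer than the 80% required. Genes were named by level within each family (the 3 highest, the lowest, and all in families of 5 or fewer), and others where space allowed. Some genes are not reported here. The members, gene lists and compared pairs were chosen with earlier results of these data known.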

Additional observations from a re-analysis of the deposited data

How the results depend on the processing

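No paired analysis was possible because the deposited mean pools all libraries, and for the same reason no replicate could be left out. The planned promoter alternative was not run. With no replicates, a value counted as moved when it changed by over 1.5 times. The share at or above the listed median (23.8%) counted as moved when it left its exact binomial 95% interval of 16.8 to 32.1%. That interval covers counting of genes only. Because the alternatives reuse the same genes, it served as a bound on size and not as a test. The alternative shares lay between 19.2 and 25.9%. Of 31 alternative values, 25 did not move. The number of channel genes among the highest 25% of listed genes, 14 as deposited, was 9 per exonic length and 8 per length of the longest transcript. Among family medians, that of the chloride genes was 421 as a geometric mean in place of 928. With genes of a mean of at least 10 only, that of the ligand-gated genes was 88.0 in place of 50.3, of the potassium genes 97.4 in place of 54.9 and of the sodium genes 79.5 in place of 52.8. Leaving out Trpc2, an alternative chosen after seeing the data, gave a median of 92.6 over the channel genes in place of 93.7. The pore signature without its first codon was found in 37 in place of 30 potassium channel genes.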
